A study of Mus musculus with 4 samples.

Results

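Crypt base stem cell markers are genes by which the stem cells at the bottom of intestinal crypts are recognised. The members described here are Lgr5, Ascl2, Smoc2, Cd44, Mex3a, Hopx, Prom1, Msi1, Tnfrsf19 and Cdca7. They were found by symbol in the table of expression values the authors deposited, in RPM (a gene's reads per 1000000 reads of its library), and all 10 were among its 14519 entries. RNA came from mouse colonic epithelium, as 2 libraries of Reg4+ DCS cells (deep crypt secretory cells sorted by a Reg4-dsRed reporter) and 2 libraries of Lgr5+ cells (stem cells sorted by an Lgr5-GFP reporter). All 4 were made by CEL-seq, which reads the 3′ end of barcoded, linearly amplified RNA. The sources used here name neither the strain and age of the mice nor the alleles that carry the reporters. The comparison bears on which genes set deep crypt secretory cells apart from the stem cells beside them.

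Crypt base stem cells divide and renew the epithelium, and they depend on Wnt signals, which R-spondins strengthen by binding Lgr5 and its relatives. Ascl2 is a transcription factor that Wnt signalling switches on and that stem cells need. Other markers are secreted (Smoc2), sit in the membrane (Cd44, Prom1, Tnfrsf19), bind RNA (Mex3a, Msi1) or act in the nucleus (Hopx, Cdca7). In the mouse small intestine Hopx and Mex3a have also been used to mark slowly cycling stem cells, and Prom1 is known to be expressed beyond the stem cells of the crypt.

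Whole reads could be recovered from the RPM steps. Each Reg4+ DCS column decoded as the average of a pair of separately scaled parts, with 5523304 and 1890960 reads in replicate 1 and 3004289 and 2443971 reads in replicate 2. Lgr5+ replicates 1 and 2 held 5205723 and 7955340 reads. Zeros in the Reg4+ DCS columns were shared: of 14343 genes decoded in both columns, 1641 stood at 0 in all 4 parts, 1120 at 0 only in the second part of both columns, 181 only in the first part of both, and 9 in any other pattern with a 0. A gene at 0 in these columns is therefore described only as listed at 0. The 10 most abundant genes took 26.9% and 18.9% of all reads in the Reg4+ DCS libraries, against 14.4% and 15.1% in the Lgr5+ libraries. On this relative scale a typical gene was lower in Reg4+ DCS cells: log2 fold changes (Reg4+ DCS minus Lgr5+) had a median of −0.47 over the 10183 genes tested. Median-of-ratios scaling, which centres the libraries on a typical gene, moved it to −0.02. In sorted bulk RNA, fewer cells that express a gene and less RNA per cell cannot be told apart.

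The sorting reporters were checked first. Lgr5, which drove 1 of the reporters and is a check of the labels only, had 0.989 and 3.13 RPM in the Reg4+ DCS libraries, against 46.5 and 48.8 RPM in the Lgr5+ libraries. Those values rest on 9 and 17 reads in Reg4+ DCS cells and on 242 and 388 reads in Lgr5+ cells. Reg4, the other reporter gene, had 6187 and 5899 RPM in Reg4+ DCS cells, against 796 and 363 RPM in Lgr5+ cells. Both genes lay on the side their labels name.

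Of the stem cell markers that could be tested, all but Prom1 were lower in Reg4+ DCS cells. Of the 9 members other than Lgr5, 6 fell (Ascl2, Smoc2, Cd44, Mex3a, Hopx and Cdca7), 0 rose, Prom1 did not pass, and Msi1 and Tnfrsf19 were too low to test. The test was limma on log2(RPM + 1), for genes with at least 5 RPM in at least 2 libraries, at an adjusted p under 0.05 over all genes. By the same rule 34.1% of all tested genes were called, 26.9% lower and 7.18% higher in Reg4+ DCS cells. EdgeR on the recovered reads, a test chosen after seeing the data, called the same 6 members lower, beside 26.8% of its genes lower and 6.9% higher. Without regard to a test, both Reg4+ DCS libraries lay below both Lgr5+ libraries for those 6 of the 7 tested members other than Lgr5 and above them for Prom1, while 72.3% of all tested genes were apart in either direction, 56.2% of tested genes lower and 16.1% higher. The median log2 fold change of the 7 tested members other than Lgr5 was −3.49, beside −0.47 over all genes. For 4 members, Lgr5, Ascl2, Smoc2 and Mex3a, only the Lgr5+ libraries reached 5 RPM, so that a gene of this kind could enter the test only by differing. The other tested members, Cd44, Cdca7, Hopx and Prom1, had log2 fold changes of −4.60, −3.16, −1.61 and 0.41. Of these, Cd44 reached 5 RPM in only 1 Reg4+ DCS library, at 5.79 and 4.11 RPM, and so also needed the Lgr5+ libraries to enter the test. The number that fell and the median, which is the value of Mex3a, include members of this kind and are descriptions, not support. The same limit holds in the gene lists below for Cdca7l, Fzd7, Znrf3, Hells, Scn2b, Igfbp4, Nkd1, Krt15, Chga and Ptprc and for all 6 tested tuft genes. Kcnq1 and Bmi1, like Cd44, reached 5 RPM in only 1 Reg4+ DCS library.

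**Figure D1:**
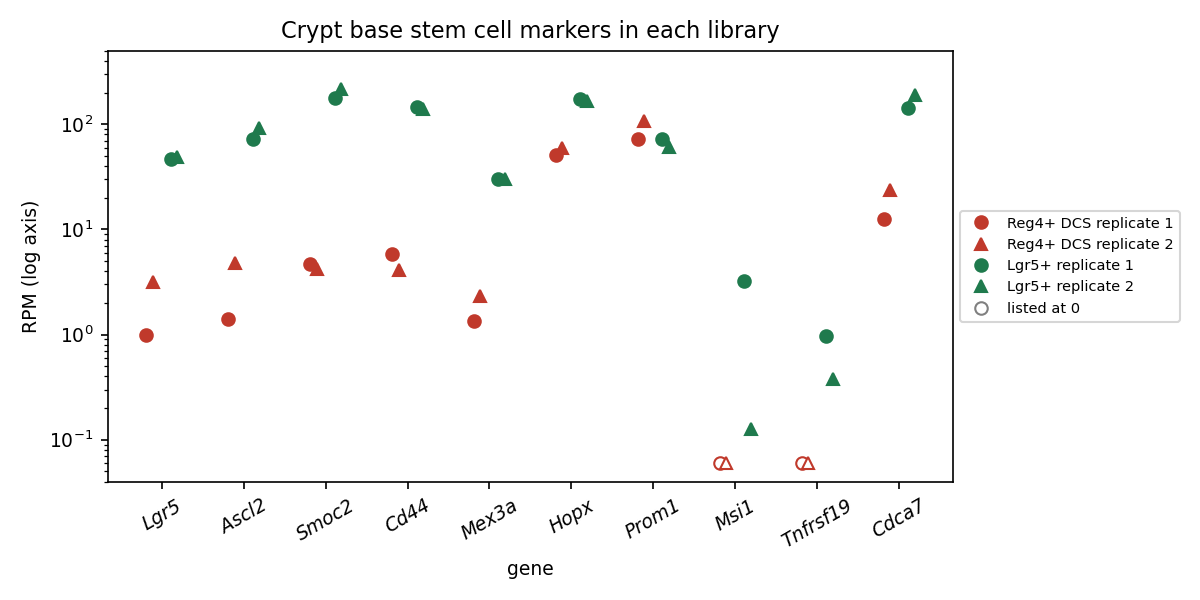
RPM of each marker on a log axis, with Reg4+ DCS libraries in red left of the Lgr5+ libraries in green; circles are replicate 1, triangles replicate 2, and open symbols at the bottom are values listed at 0. For Ascl2 the Reg4+ DCS libraries sit at 1.42 and 4.79 RPM and the Lgr5+ libraries at 71.7 and 91.5 RPM, whereas the populations lie close together for Prom1.

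Ascl2 (mouse chromosome 7, 142966829 to 142969264, minus strand, GRCm38, protein coding) is a basic helix-loop-helix factor that holds stem cell fate downstream of Wnt. It had 1.42 and 4.79 RPM in the Reg4+ DCS libraries, from 8 and 26 reads, against 71.7 and 91.5 RPM in the Lgr5+ libraries, from 373 and 728 reads. Both Reg4+ DCS libraries lay far below both Lgr5+ libraries, and their own spread was wide for its level. Ascl2 averaged 3.10 ± 2.38 RPM in Reg4+ DCS cells, against 81.6 ± 14.0 RPM in Lgr5+ cells (SD, n = 2 each), a mean 26.3-fold lower in Reg4+ DCS cells. Leaving out Reg4+ DCS replicate 1 gave 17.0-fold, and leaving out replicate 2 gave 57.5-fold. Its log2 fold change was −4.45 (SE 0.43, limma adjusted p = 0.000351), and 0.471% of tested genes had one as low or lower.

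Smoc2 (chromosome 17, 14279506 to 14404790, plus strand) encodes a secreted calcium-binding matrix protein and is one of the stem cell signature genes of the small intestine. Smoc2 had 4.72 and 4.20 RPM in Reg4+ DCS cells, against 179 and 218 RPM in Lgr5+ cells. The Reg4+ DCS libraries were nearly level and all values lay far from the other population. Smoc2 was 44.5-fold lower in Reg4+ DCS cells (log2 fold change −5.19, SE 0.26, limma adjusted p = 0.000115). It was 22nd from the lowest of 10183 tested genes.

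Among the surface proteins, Cd44, a hyaluronan receptor and Wnt target (chromosome 2, 102811141 to 102901665, minus strand), had 5.79 and 4.11 RPM in Reg4+ DCS cells, against 145 and 138 RPM in Lgr5+ cells. The populations stood well apart, at 28.6-fold lower in Reg4+ DCS cells (log2 fold change −4.60, SE 0.27, limma adjusted p = 0.000143). Its isoforms, which differ in variable exons, cannot be told apart by a 3′ read count per gene.

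Prom1, the pentaspan membrane glycoprotein also called CD133 (chromosome 5, 43993620 to 44102032, minus strand), was not lower. It had 73.1 and 107 RPM in Reg4+ DCS cells, against 72.2 and 61.2 RPM in Lgr5+ cells. Both Reg4+ DCS libraries lay above both Lgr5+ libraries, but replicate 1 of each population differed by less than 1 RPM. The mean was 1.35-fold higher in Reg4+ DCS cells, at 90.1 ± 24.0 against 66.7 ± 7.79 RPM (SD, n = 2 each). On the log2 scale the difference was 0.41, with a 95% interval from −0.20 to 1.02 (limma adjusted p = 0.254). Median-of-ratios scaling gave 0.87, a call on the higher side (limma adjusted p = 0.0189) that 14.8% of all genes shared, with 13.6% called lower. The call on Prom1 therefore depended on the scaling, and its interval on the deposited scale does not show equal levels.

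Tnfrsf19, also called Troy, is a receptor of the tumour necrosis factor family that marks small intestinal stem cells (chromosome 14, 60963875 to 61046490, minus strand). Tnfrsf19 stood at 0 in each Reg4+ DCS column, against 0.960 and 0.377 RPM in the Lgr5+ libraries, from 5 and 3 reads. In the parts of the Reg4+ DCS columns 3 reads would be worth 0.543 to 1.59 RPM. Tnfrsf19 did not reach 5 RPM in any library, and with no filter it did not pass (limma adjusted p = 0.0519). So few reads, beside a 0 that is only listed, do not decide whether the populations differ.

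**Figure D2:**
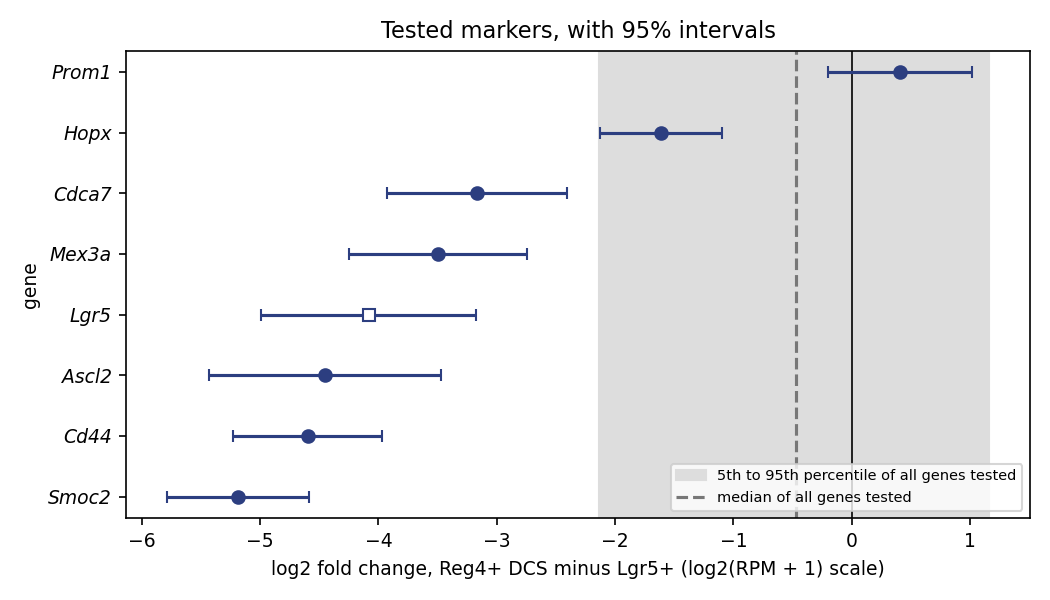
Log2 fold change of each tested marker (Reg4+ DCS minus Lgr5+, log2(RPM + 1) scale) with its 95% interval; the open square is Lgr5, the grey band the 5th to 95th percentile of all tested genes (−2.14 to 1.16) and the dashed line their median (−0.47). Hopx at −1.61 and Prom1 at 0.41 lie within the band, and the other 6 lie below it.

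Of the RNA-binding proteins, Mex3a, a KH-domain protein with a RING finger (chromosome 3, 88532395 to 88541396, plus strand), had 1.35 and 2.30 RPM in Reg4+ DCS cells, against 30.4 and 30.4 RPM in Lgr5+ cells. The Lgr5+ libraries agree within sampling noise, at 25.8 to 35.5 and 26.7 to 34.5 RPM (95% exact Poisson intervals, which cover counting error only). Mex3a was 16.6-fold lower in Reg4+ DCS cells (log2 fold change −3.49, SE 0.33, limma adjusted p = 0.000324). Msi1, Musashi 1, a translational regulator that acts on Numb mRNA (chromosome 5, 115429599 to 115455698, plus strand), stood at 0 in each Reg4+ DCS column, against 3.27 and 0.126 RPM in the Lgr5+ libraries. Those rest on 17 reads and 1 read, so that the Lgr5+ libraries differed from each other beyond counting error, at 1.90 to 5.23 and 0.00318 to 0.700 RPM (95% exact Poisson intervals). Msi1 did not reach 5 RPM in any library and was not tested on the filtered table.

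Hopx, a homeodomain-only protein that does not bind DNA (chromosome 5, 77086988 to 77115121, minus strand), remained well detected in Reg4+ DCS cells. It had 50.8 and 59.6 RPM there, from 361 and 317 reads, against 173 and 166 RPM in Lgr5+ cells, from 902 and 1324 reads. The populations did not overlap and each pair of libraries lay close together. Hopx was 3.08-fold lower in Reg4+ DCS cells, with a log2 fold change of −1.61 (SE 0.22, limma adjusted p = 0.00166). Its 95% interval, −2.12 to −1.09, did not meet those of the other markers that fell, the nearest being Cdca7 at −3.92 to −2.41. As many as 9.59% of tested genes had a log2 fold change as low as that of Hopx.

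Cdca7, a zinc finger protein induced by Myc and E2F that works with the chromatin remodeler Hells (chromosome 2, 72476159 to 72486893, plus strand), had 12.6 and 23.9 RPM in Reg4+ DCS cells, against 143 and 189 RPM in Lgr5+ cells. It was detected with 76 and 127 reads in Reg4+ DCS cells, more than Ascl2, Smoc2, Cd44 or Mex3a, and still lay below both Lgr5+ libraries. Cdca7 was 9.08-fold lower in Reg4+ DCS cells (log2 fold change −3.16, SE 0.33, limma adjusted p = 0.00052).

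What remained in Reg4+ DCS cells was not in 1 ratio across the markers. Relative to the Lgr5+ mean, Smoc2 stood at 2.25%, Cd44 at 3.50%, Ascl2 at 3.80%, Lgr5 at 4.33%, Mex3a at 6.01%, Cdca7 at 11.02%, Hopx at 32.5% and Prom1 at 135%. The replicates differed by gene as well. For Lgr5, Reg4+ DCS replicate 1 had 0.315 times the RPM of replicate 2, and for Ascl2 0.297 times. Cdca7 and Mex3a also had the lower value in replicate 1, at 0.527 and 0.587 times, while Smoc2 and Cd44 had the higher one, at 1.12 and 1.41 times. Low read numbers bound these ratios. Ascl2 had 4 and 4 reads in the parts of replicate 1 and 14 and 12 in those of replicate 2, and Cd44 had 26 and 13 reads against 5 and 16. Each of the 8 detected markers had reads in all 4 parts.

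**Figure D3:**
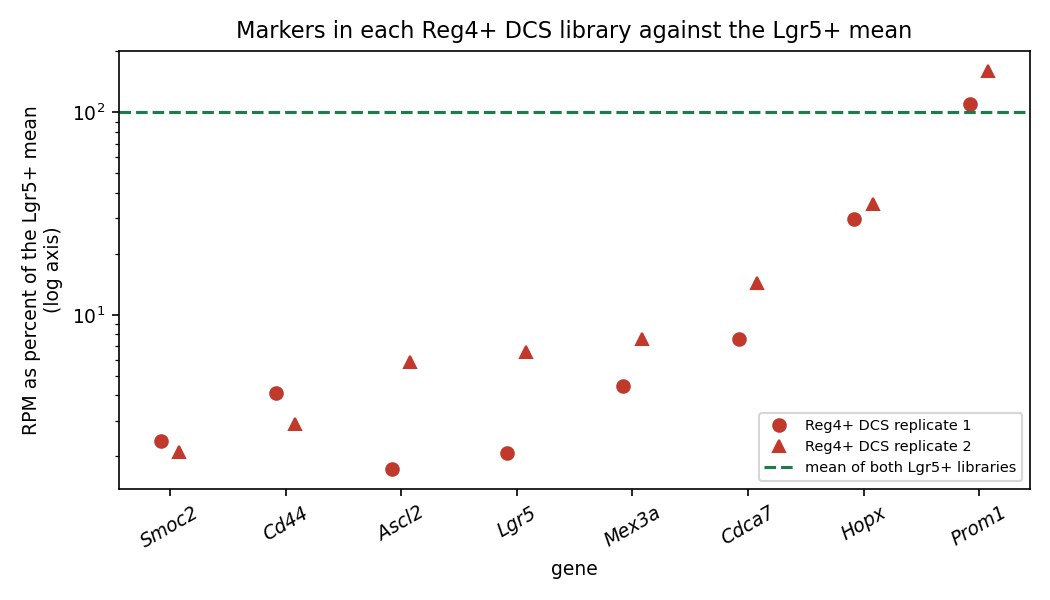
RPM of each detected marker in the Reg4+ DCS libraries as a percent of the mean of both Lgr5+ libraries (dashed line), on a log axis, ordered by the mean percent; circles are replicate 1 and triangles replicate 2. Smoc2 lies at 2.38% and 2.11%, Hopx at 29.9% and 35.1%, and Prom1 at 110% and 161%.

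For the 8 markers detected in both populations, ratios of Lgr5+ replicate 1 to replicate 2 ran from 0.755 for Cdca7 to 1.18 for Prom1, while Msi1 and Tnfrsf19, at few reads, were both higher in replicate 1. Markers of several other cell types differed more between the same libraries. Tuft cell markers (8 of 9 listed genes) summed to 2.30 and 1.98 RPM in Reg4+ DCS cells, against 941 and 274 RPM in Lgr5+ cells, a ratio of 3.44 between the Lgr5+ replicates, and Reg4+ DCS libraries both listed 0 for 5 of them (Gfi1b, Il25, Alox5ap, Rgs13 and Ptgs1). Absorptive cell markers (8 of 9) summed to 441 and 552 RPM in Reg4+ DCS cells, against 1040 and 226 RPM in Lgr5+ cells. Guca2a, the precursor of guanylin, made up most of the Reg4+ DCS sum at 339 and 505 RPM, against 211 and 67.5 RPM in Lgr5+ cells. Guca2a passed as higher in Reg4+ DCS cells, while the other 6 tested genes had log2 fold changes below 0 and 3 of them fell. With no filter Guca2a was not called (limma adjusted p = 0.0644), and Slc26a3 was the 1 absorptive gene that fell. The absorptive calls also changed with single libraries left out. Goblet cell markers (9 of 9) summed to 210619 and 139466 RPM in Reg4+ DCS cells, against 6407 and 2478 RPM in Lgr5+ cells. Leukocyte markers (6 of 12) summed to 0.536 and 0.537 RPM in Reg4+ DCS cells, against 46.5 and 13.2 RPM in Lgr5+ cells, most of it Ptprc at 40.1 and 9.55 RPM. Ptprc, Cd3e, Cd79a and Coro1a had a listed 0 in each Reg4+ DCS column. Stromal and endothelial markers (5 of 12) summed to 2.05 and 2.06 RPM in Reg4+ DCS cells against 5.57 and 5.15 RPM in Lgr5+ cells, with a listed 0 for Col1a1, Acta2 and Pecam1 in each Reg4+ DCS column. Des, at 1.79 and 1.45 RPM, made up most of the Reg4+ DCS sum and was listed at 0 in Lgr5+ cells. The enteroendocrine markers (8 of 8) summed to 34.8 and 47.6 RPM in Reg4+ DCS cells against 90.5 and 67.8 RPM in Lgr5+ cells. The tuft, absorptive and leukocyte sums were 3.44 to 4.59 times as high in Lgr5+ replicate 1 as in replicate 2, and the goblet sum 2.59 times. The part of these cells in the differences of the stem cell markers was not tested.

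Promoters of markers that fell together are shown for Ascl2, Cd44 and Cdca7, whose only RefSeq window (GRCm38.p6) adjoins the annotated transcript. Each run ends just before the annotated transcript start (190 bases for Cdca7, 250 for the others), is written 5′ to 3′ on the strand of the gene, and has CCAAT boxes (CCAAT, or ATTGG on the other strand) in capitals. The windows are chr7:142969265-142969514 on the minus strand, chr2:102901666-102901915 on the minus strand and chr2:72475969-72476158 on the plus strand.
Ascl2: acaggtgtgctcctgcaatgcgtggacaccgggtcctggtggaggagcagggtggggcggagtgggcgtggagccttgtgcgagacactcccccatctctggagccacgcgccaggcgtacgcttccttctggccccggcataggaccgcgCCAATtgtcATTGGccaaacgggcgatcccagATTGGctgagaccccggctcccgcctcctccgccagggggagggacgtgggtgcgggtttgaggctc
Cd44: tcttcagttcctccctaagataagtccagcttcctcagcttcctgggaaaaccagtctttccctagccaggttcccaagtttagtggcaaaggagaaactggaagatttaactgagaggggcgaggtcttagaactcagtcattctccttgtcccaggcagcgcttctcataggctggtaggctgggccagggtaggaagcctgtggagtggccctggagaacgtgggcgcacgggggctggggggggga
Cdca7: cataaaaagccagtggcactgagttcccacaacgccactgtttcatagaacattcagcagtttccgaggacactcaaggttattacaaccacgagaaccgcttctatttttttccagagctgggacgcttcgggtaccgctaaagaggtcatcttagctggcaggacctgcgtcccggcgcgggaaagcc

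The Ascl2 window held 3 CCAAT boxes, those of Cd44 and Cdca7 held 0. In the 250 bases upstream of a start, 33.8% of all 32851 RefSeq windows held a CCAAT box on either strand. Among the members, 7 had windows, 10 in all with alternative starts, and 4 windows held a CCAAT box, those of Ascl2, Prom1 (at 1 of its starts) and Hopx (at both starts). The core letters of a TCF/LEF site, CTTTGAA or CTTTGAT on either strand, were in 1 member window, an alternative start of Tnfrsf19, and in 7.48% of all windows. The E-box CAGCTG was in the same Tnfrsf19 window and in 13% of all windows, and TATAAA was in 0 member windows and in 12.4% of all. No CCAAT match overlapped a match to another motif. These are letter matches in a short window and not binding sites.

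Relatives of the markers were lower in part. Of 11 listed paralogs, 8 were in the table, 5 were tested, 4 fell and 0 rose, with a median log2 fold change of −1.22. Lgr4, the broadly expressed R-spondin receptor, had 24.1 and 42.9 RPM in Reg4+ DCS cells, against 62.4 and 79.4 RPM in Lgr5+ cells (2.12-fold lower, limma adjusted p = 0.0304). Cdca7l, also a Myc partner, fell 5.08-fold, to 2.41 and 2.30 RPM in Reg4+ DCS cells, against 10.4 and 13.6 RPM in Lgr5+ cells (limma adjusted p = 0.00388). Mex3c and Mex3d, RNA-binding ubiquitin ligases, were 2.46-fold and 2.71-fold lower. Msi2, the other Musashi protein, had 126.3 and 164 RPM in Reg4+ DCS cells, against 166 and 106 RPM in Lgr5+ cells, and did not pass (limma adjusted p = 0.771). Under median-of-ratios scaling and with no filter, Cdca7l was the 1 of these 5 still called. Fewer of the 5 were called with any single library left out, as were fewer of all tested genes. Smoc1 had 1.43 and 1.52 RPM in Reg4+ DCS cells, against 3.27 and 2.77 RPM in Lgr5+ cells, and was not tested. Mex3b, at 0.898 and 1.32 RPM in Reg4+ DCS cells against 6.34 and 3.02 RPM in Lgr5+ cells, was not tested on the filtered table either, and was called lower with no filter and with a filter on a mean of 2 RPM (limma adjusted p = 0.0496 and 0.0477). Lgr6 was not tested, at 0.0905 and 0.166 RPM in Reg4+ DCS cells and listed at 0 in Lgr5+ cells.

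Genes that act with the markers were lower in part. Of 12 listed partners 8 were in the table and tested, 6 fell and 0 rose, with a median log2 fold change of −1.44. Fzd7, a Wnt receptor of stem cells, was 12.8-fold lower in Reg4+ DCS cells, at 2.14 and 3.26 RPM against 31.3 and 37.8 RPM in Lgr5+ cells (limma adjusted p = 0.000392). Hells, the remodeler that binds Cdca7, was 5.15-fold lower, at 3.76 and 4.90 RPM in Reg4+ DCS cells against 19.6 and 25.01 RPM in Lgr5+ cells. Rnf43 and Znrf3, membrane ubiquitin ligases that remove Wnt receptors and are held back by R-spondin bound to Lgr proteins, were 3.96-fold and 4.87-fold lower, and Rnf43 5.96-fold with Reg4+ DCS replicate 2 left out. Another Wnt receptor, Fzd5, did not pass, at 85.8 and 116 RPM in Reg4+ DCS cells against 77.2 and 52.9 RPM in Lgr5+ cells (limma adjusted p = 0.109), and its call turned to higher with median-of-ratios scaling (limma adjusted p = 0.0103). Under that scaling 4 partners fell, as Lrp6 and Numb lost their calls, beside 13.6% of all tested genes called lower. Numb was also not called with no filter or with edgeR. Fewer partners were called with any single library left out, as were fewer of all tested genes.

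Most other crypt base stem cell genes fell. Of 22 listed genes 19 were in the table, and of the 16 tested, which include Rnf43 and Znrf3 again, 13 fell and 0 rose, with a median log2 fold change of −2.02. Kcnq1, a potassium channel, was 55.7-fold lower in Reg4+ DCS cells, at 4.01 and 6.78 RPM against 253 and 348 RPM in Lgr5+ cells (limma adjusted p = 0.000116). Igfbp4, a binding protein of insulin-like growth factors, was 59.4-fold lower, at 1.06 and 0.371 RPM in Reg4+ DCS cells against 30.7 and 54.6 RPM in Lgr5+ cells. Its Reg4+ DCS values rest on only 6 and 2 reads, and its fold was 115 without Reg4+ DCS replicate 1. Axin2, a feedback inhibitor and common readout of Wnt signalling, was 11.2-fold lower, at 7.87 and 10.98 RPM in Reg4+ DCS cells against 104.5 and 107 RPM in Lgr5+ cells. Aqp4, a water channel, was 9.34-fold lower (19.5 without Reg4+ DCS replicate 1 and 6.14 without replicate 2). Soat1, Cdk6 and Slc12a2 did not pass, with log2 fold changes of −0.59, −0.47 and −0.41. Fewer of these genes were called with Reg4+ DCS replicate 1 or either Lgr5+ library left out, as were fewer of all tested genes.

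Genes proposed for reserve stem cells fell in part. Of 8 listed, all in the table, 6 were tested, 4 fell and 0 rose, with a median log2 fold change of −1.36. Igf1r, the receptor of insulin-like growth factor 1, was 3.44-fold lower in Reg4+ DCS cells, Lrig1, an inhibitor of ErbB receptors, 2.43-fold lower, and Sox9, a transcription factor that is also among the crypt base genes, 2.78-fold lower. Krt15, a keratin, was 3.71-fold lower. Bmi1, a Polycomb protein, had 3.76 and 7.97 RPM in Reg4+ DCS cells, against 6.72 and 9.43 RPM in Lgr5+ cells, and did not pass (limma adjusted p = 0.391). Median-of-ratios scaling left 2 calls (Igf1r and Lrig1), beside 13.6% of all tested genes called lower. Fewer of the 6 were called with any single library left out, as were fewer of all tested genes.

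Cell division genes moved in the same direction as the markers. Of 20 tested 18 fell and 0 rose, with a median log2 fold change of −2.00. Plk1, a mitotic kinase, had 25.1 and 23.6 RPM in Reg4+ DCS cells, against 275 and 268 RPM in Lgr5+ cells, and Ccnb2, a mitotic cyclin, had 21.1 and 24.5 RPM in Reg4+ DCS cells, against 125 and 141 RPM in Lgr5+ cells. Mki67, a proliferation antigen, had 60.6 and 69.9 RPM in Reg4+ DCS cells, against 342 and 364 RPM in Lgr5+ cells. Pcna and Rrm2, both used in DNA synthesis, did not pass, with log2 fold changes of −0.49 and −0.41. These values stand beside those of Cdca7, Mex3a and Hells, and the part of cell division in their differences was not tested. All 20 genes were above 0 in all 4 libraries.

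**Figure D4:**
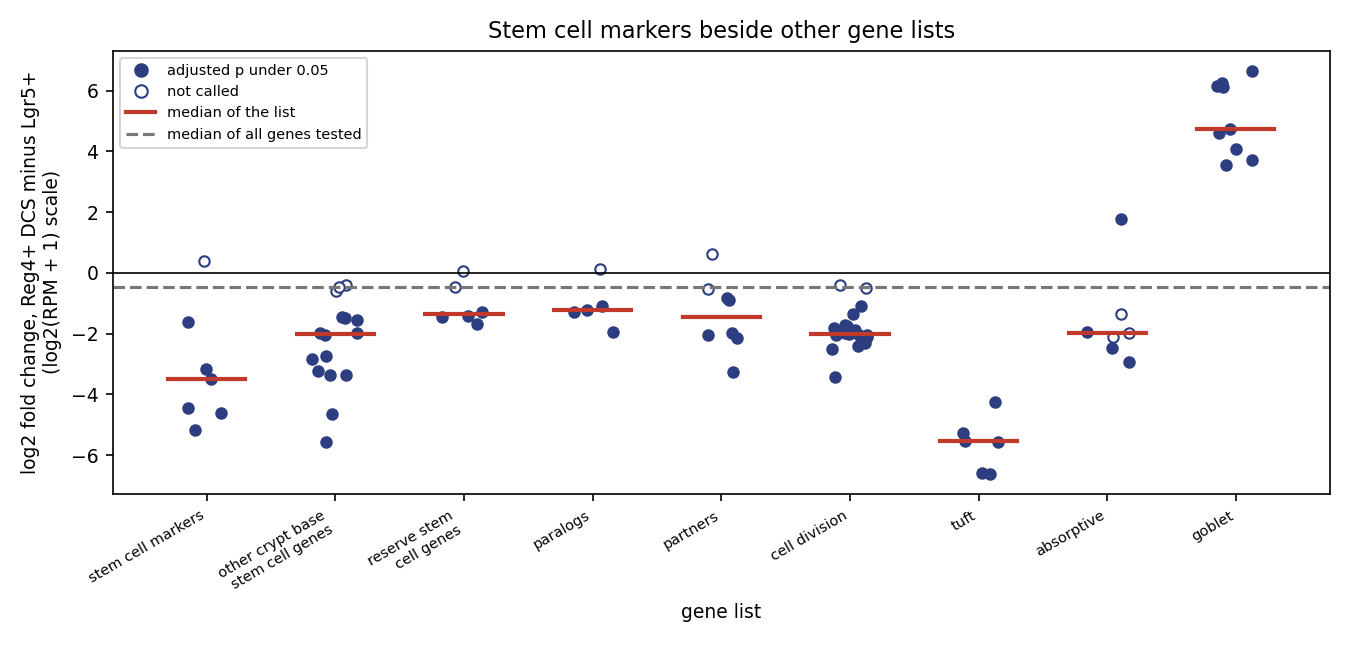
Log2 fold change (Reg4+ DCS minus Lgr5+, log2(RPM + 1) scale) of every tested gene in 9 lists; filled points were called, open points were not, red bars are list medians, and the dashed line is the median of all tested genes (−0.47). The stem cell markers, drawn without Lgr5, have a median of −3.49 and the other crypt base genes −2.02. Cell division genes have −2.00, tuft genes −5.55 and goblet genes 4.73. The marker, other crypt base, reserve, paralog, partner and tuft medians include genes that reached 5 RPM only in the Lgr5+ libraries, and are descriptions. Alox5ap, Rgs13 and Ptgs1, listed at 0 in both Reg4+ DCS columns, enter the tuft median with that 0.

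By distance over the 4 libraries on the log2(RPM + 1) scale, the tested genes with values most like those of Ascl2 were Acot1, an acyl-CoA thioesterase with near-identical copies, at 0.44, Notch1, a receptor of the Notch pathway, at 0.50, and Ano6, a membrane scramblase, at 0.67. Notch1 had 1.89 and 4.04 RPM in Reg4+ DCS cells, against 93.2 and 90.4 RPM in Lgr5+ cells. Lgr5 was 11th in that order, at 1.22, and Hopx and Prom1 lay far from it, at 5.77 and 6.52. The genes most like Hopx were Picalm, a clathrin adaptor, at 0.17, Rcc1, a chromatin-bound exchange factor, at 0.19, and Nucks1, a nuclear phosphoprotein, at 0.31. With 4 libraries in 2 groups, likeness of this kind reflects level and group difference only.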

How the data were processed

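The authors deposited 1 table of RPM for 4 CEL-seq libraries, each column scaled to 1000000. Per the labels' protocols, sorted cells went into Trizol and libraries were sequenced as paired-end reads; the tool and build listed in the submitters' processing notes are BWA (0.6.2-r126) and mm10. The sources used here do not give the annotation, counting, strand use, molecular identifiers or filters. Without identifiers, amplified copies would count as reads. Antisense or overlapping genes lie on the other strand of 8 members, whose reads cannot be separated if strand was not used. Prom1 also overlaps Gm42716, a processed transcript on its own strand, which strand use would not separate. Only Mex3a has another gene within 1000 bases of its 3′ end.

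Reads were recovered as whole multiples of the RPM steps: 99.9% and 98.8% of genes in the Reg4+ DCS columns had a unique pair of whole numbers for the 2 parts, and 100% of values in both Lgr5+ columns were whole within 0.01 reads. The sources used here do not say what the parts are. Each column counts as 1 replicate, so that the spread of Reg4+ DCS columns is one of averages.

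Fits used limma 3.58.1 in R 4.3.3 (trend) on log2(RPM + 1), group as the only term, over 10183 genes with at least 5 RPM in at least 2 libraries, with Benjamini-Hochberg adjustment at 0.05. This scale understates changes of low genes. Folds are ratios of mean RPM. The fit and the read recovery were tested on simulated data. The design text calls the sorts biological replicates; p-values rest on 2 libraries per population. Alternatives were other pseudocounts, filters and scaling, no trend, a replicate block, each library left out (with the tested genes kept), and edgeR 4.0.16 on recovered reads. Members and lists were chosen with earlier results of these data known; 1 gene of the cell type lists is not reported here and was left out of its list's values. Named genes were all members, Reg4, paralogs, genes from the 4 largest called changes per direction of each list, and nearest genes; Fzd5, Lrp6, Numb, Bmi1, Soat1, Cdk6, Slc12a2, Pcna, Rrm2, Guca2a, Des and the marker genes listed at 0 were named after their values were seen. Coordinates are from GENCODE M21 (GRCm38, the assembly of mm10), matched by symbol and chromosome for 13608 of 14519 entries; promoters are from RefSeq.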

Additional observations from a re-analysis of the deposited data

How the results depend on the processing

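Of the 9 members other than Lgr5, 6 were called under the main settings and under 11 of the 12 alternatives, and 7 under median-of-ratios scaling, which added Prom1 (log2 fold change 0.87, limma adjusted p = 0.0189). Across the alternatives the log2 fold changes of the 6 ranged from −5.59 for Smoc2 with edgeR to −1.14 for Hopx under median-of-ratios scaling, and the highest adjusted p was 0.0344, for Hopx without Lgr5+ replicate 2. Prom1 ranged from 0.13 to 0.87. Over all genes limma called 3475, and leaving out each library in turn gave 1072 to 2669. Of the calls 79.0% were lower in Reg4+ DCS cells on the deposited scale and 48.0% under median-of-ratios scaling (1505 higher and 1389 lower). EdgeR, chosen after seeing the data, called 690 higher and 2682 lower of 10007 genes. Genes without uniquely decoded reads were left out of it. They include Reg4, Muc2, Tff3, Fcgbp, Clca3, Zg16, Spink4 and Agr2, each called higher by limma, so the counts called higher are not like for like. The labels do not say that a replicate number marks a shared sort; deviations of same-numbered libraries correlated at 0.212 across genes, and with the replicate number as a block 4444 genes and the 6 members were called. With no filter, Msi1 and Tnfrsf19 did not pass (adjusted p = 0.193 and 0.0519). Among the members, depth limits Msi1, Tnfrsf19 and the Reg4+ DCS values of Lgr5, Ascl2 and Mex3a, each from 26 reads or fewer per library. Of 264 counts of called genes in the companion lists under the alternatives, 129 were 0 under both settings and say nothing of stability; of the other 135, 103 were within 1.5 times of the main count and 32 were not.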
